A study of Mus musculus with 4 samples.

Results

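Potassium channel genes encode the pores, and the subunits attached to them, that let potassium ions cross cell membranes. The genes described here were all those in the table of normalized counts whose symbol is Kcn followed by a family letter or letters and a number, leaving out Kcnj8, Kcnj13 and Kcnk9, which gave 80 of 24873 listed genes. They were grouped by structure into 37 voltage-gated pore genes, 8 calcium- or sodium-activated pore genes, 12 inward rectifier genes, 10 2-pore-domain genes and 13 genes for auxiliary subunits.

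The study examined how loss of matrix Gla protein, the product of Mgp and an inhibitor of bone morphogenetic proteins, changes the cells of brain vessels. RNA-Seq was carried out on 4 mouse libraries, 2 labelled as not given tamoxifen (control) and 2 as tamoxifen treated. All 4 carry the genotype Cdh5cre;Mgpflox/flox, in which a tamoxifen-dependent Cre is driven by the VE-cadherin promoter and both Mgp alleles are floxed, so the controls share the alleles and lack the drug. From 10 weeks of age, treated mice had 5 daily injections of tamoxifen (75 mg/kg), and RNA was taken on day 9. A figure legend of the study says that each library pooled the cells of 3 mice. Its methods give 3 mice for each group, so the number of mice per group is uncertain. The groups contain no tamoxifen-treated mice without the floxed alleles, so effects of the drug or of Cre and effects of the deletion cannot be told apart. The labels name the source as tdTomato-positive brain cells, whereas the series design names a CD31+CD45- sort, and the columns carry the letters C and A. C was read as control and A, which the labels do not use, as tamoxifen by elimination.

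Reads on genes numbered 37475154 and 41025014 in the controls and 35387438 and 49799321 after tamoxifen. Values below are normalized counts, the authors' read counts divided by a size factor for each library, and pairs of values give library 1 and then library 2. The floor of 3 reads corresponded to 4.11 and 3.75 normalized counts in the controls and to 3.25 and 2.16 after tamoxifen, a limit that covers counting error only. A gene was said to rise or fall when limma gave an adjusted p under 0.05 and a log2 fold change beyond 1 in size, on the scale of log2(normalized count + 1), which understates changes of genes with low counts.

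Mgp itself was at 1094 and 1352 normalized counts without tamoxifen and 945 and 909 with it. Both tamoxifen values lay below both control values, but the difference did not pass the test (log2 fold change -0.39 ± 0.18 SE, adjusted p = 0.0986). For equal library totals the value was 0.08, a move of the size that this scaling gave all genes (0.47), so it shows nothing particular to Mgp. Counts over the whole gene do not separate deleted from intact alleles, and Mgp made by cells outside the reach of Cre was not measured apart.

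The labelled cell type was checked with markers. All 8 endothelial markers, among them Pecam1 (the CD31 antigen) and Cdh5 (VE-cadherin), were abundant, with a summed level of 656924 and 659912 normalized counts in the control pair and 120253 and 64127 in the tamoxifen pair. Each of the 8 fell, with a median log2 fold change of -2.88. Markers of other cells were present in every library, although a CD31+CD45- sort is meant to leave out most such cells. Among these are the neurons, glia, microglia and neutrophils whose markers are given below. The 8 neutrophil markers summed to 307 and 245 and 111385 and 82979.5 in the control and tamoxifen libraries, and all 8 rose. The 8 pluripotency markers went from 79.4 and 115 to 54965 and 42750 and all 8 rose, while the 6 pituitary markers, Gh and Pomc among them, went from 13364 and 37528 to 114 and 77.6 and all 6 fell. When a tamoxifen library was left out, the calls of these 4 lists stayed the same, except that 5 of the pituitary markers fell without library 2. No marker of the 12 lists was at 0 in both libraries of a group. In bulk RNA, fewer cells of a type and less RNA per cell cannot be told apart, which holds for every value below.

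Potassium channels set the resting voltage of most cells. In brain capillaries, endothelial inward rectifiers sense potassium released by active neurons and pass the voltage signal upstream, where smooth muscle relaxes and flow increases. Astrocytes take up potassium through their own inward rectifiers at the end-feet that wrap the vessels, whereas voltage-gated and calcium-activated channels shape firing in neurons and tone in smooth muscle. Auxiliary subunits have no pore and alter the gating, traffic or calcium response of the pores they bind.

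Most potassium channel genes were higher in the tamoxifen libraries, while the genes that led in the control libraries were mostly lower. Of the 80 genes, 77 had a mean of at least 10 normalized counts and were tested. Of these, 54 rose (70.1%, beside 28.6% of the 20485 genes tested) and 5 fell (6.49%, beside 16.0%). The genes that fell were Kcna5, Kcnq1, Kcnj2, Kcnj15 and Kcne3. The median log2 fold change was 2.49 over the 77 genes and 0.05 over all genes tested. Both tamoxifen values lay above both control values for 62 of the 77 (beside 43.1% of all genes tested) and below them for 7 (beside 39.2%), and the groups overlapped for the other 8. These counts take in 20 genes whose control mean was under 10 and which passed the filter through the tamoxifen libraries, so they had to be higher there. Among the 57 with a control mean of at least 10, 38 rose and 5 fell, 66.7% and 8.77%, beside 20.7% and 18.3% of the 17953 genes of that kind, and the median log2 fold change was 2.05 beside -0.17.

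Fewer calls passed when either tamoxifen library was left out. Without tamoxifen library 1, 22 genes rose and 4 fell, and without tamoxifen library 2, 13 rose and 4 fell, while over all genes the rises went from 5867 to 3030 and 2553 and the falls from 3284 to 1994 and 1594. In these fits the single remaining library is assumed to vary as the control pair does, so a lost call does not by itself show dependence on the library left out. With a control library left out, the remaining control is assumed to vary as the tamoxifen pair does. The direction of all genes also depended on the scaling, since the median over all genes tested shifted by 0.47 when libraries were rescaled to the same total and by -0.28 with quantile normalization. Of all calls, 64.1% were rises, against 79.7% and 45.6% under these scalings. Relative to the median of all genes, the median of the potassium channel genes was 2.44 higher as reported, 2.41 higher with equal totals and 1.80 higher after quantile normalization. Among genes with a control mean of at least 10 these differences were 2.22, 2.22 and 1.49.

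**Figure D1:**
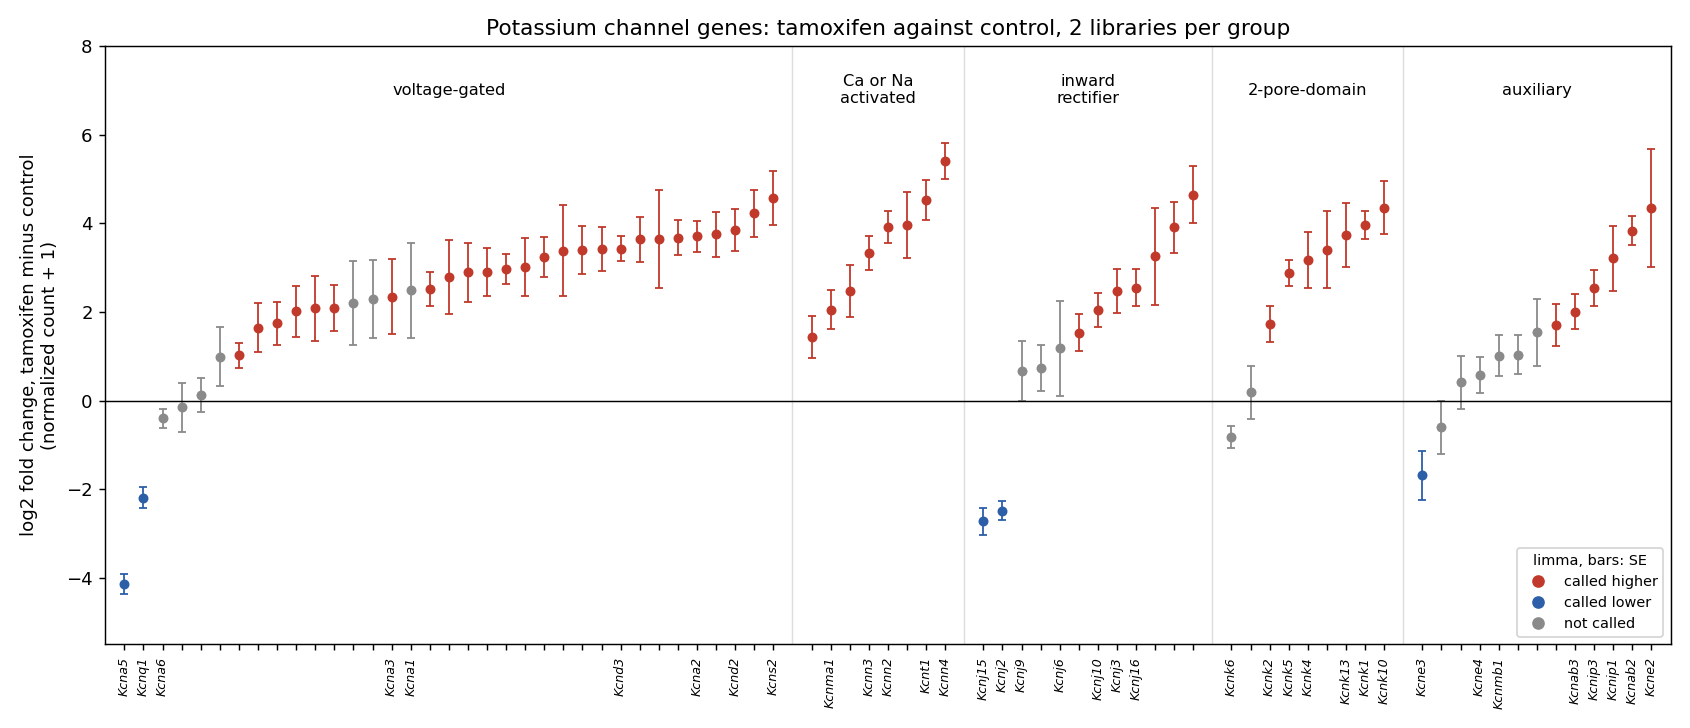
Log2 fold change (tamoxifen minus control, on log2 of the normalized count + 1) of the 77 tested potassium channel genes, ordered within 5 structural classes, with names given for the genes described in the text. Points are limma estimates from 2 libraries per group, bars are standard errors, red points rose, blue points fell and grey points did not pass. Kcna5 lies lowest at -4.14 and Kcnn4 highest at 5.40, and the median is 2.49.

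The summed level of all 80 genes was 13179.6 and 15293 normalized counts in the controls and 26803 and 44644 after tamoxifen. As a share of reads on genes this was 0.0257% and 0.0298% in the controls against 0.0699% and 0.125% after tamoxifen. Genes with at least 100 normalized counts numbered 18 and 21 in the controls and 44 and 48 after tamoxifen. Levels of different genes can be compared only per length, here per kilobase of annotated exon. On that scale Kcna5 led in the controls (671 and 622 normalized counts per kilobase), followed by Kcnj2 (523 and 455), Kcnj10 (274 and 539) and Kcnq1 (311 and 339), and the range of Kcnj10 overlapped those of Kcnj2 and Kcnq1. In the tamoxifen libraries the order was led by Kcnj10 (1118 and 2243 per kilobase) and Kcnk1 (702 and 1295), ahead of Kcnip3 (305 and 681), and in each library the 3 stood in this order. Kcnj16 (145 and 319.9) and Kcnk5 (227 and 184) came below Kcnip3 within each library, with Kcnk5 above Kcnj16 in library 1 and below it in library 2. The ranges of Kcnj10 and Kcnk1 overlapped, as did those of Kcnip3 and Kcnj16. The 5 genes that fell supplied 60.0% and 48.7% of the summed per-kilobase level of the 80 genes in the controls and 5.29% and 2.27% after tamoxifen, a description of genes picked by that contrast.

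The voltage-gated genes open when the membrane depolarizes. Of 37, 35 were tested, 26 rose (74.3%), 2 fell (5.71%) and 7 did not pass, with a median log2 fold change of 2.79 (1.71, with 16 rises and 3 falls, after quantile normalization). Here and in the classes below, the shares over all genes tested were 28.6% and 16.0%. They belong to the fit of all libraries as reported, and no excess over all genes is read from fits without a tamoxifen library. After quantile normalization 4615 of the 20485 genes tested rose and 5509 fell, and with equal totals 7206 rose and 1838 fell. For control means of at least 10, quantile normalization gave 52% rises and 12% falls in this class, beside 16.5% and 30.7% over all genes. Rises over all genes also became fewer without either tamoxifen library, and the sizes of these losses were not compared. Of the 25 with a control mean of at least 10, 18 rose. Fewer of the class rose when either tamoxifen library was left out. The class median was 2.982 without tamoxifen library 1, beside 0.0593 over all genes tested. Without tamoxifen library 2 the class median was 2.702, beside 0.0572 over all genes tested. Kcna5 encodes a delayed rectifier pore known from arterial muscle and heart. It was at 1922 and 1781 normalized counts in the controls and 114 and 95.6 after tamoxifen. Both control libraries were high and both tamoxifen libraries low, a 17.7-fold fall of the mean (log2 fold change -4.14 ± 0.23 SE, adjusted p = 1.27e-05). Kcnq1 encodes the pore of the slow delayed rectifier of heart muscle and also serves ion transport in epithelia. Its values were 1593 and 1737 in the controls and 445 and 298 after tamoxifen. The groups were again apart, and the gene fell 4.48-fold (log2 fold change -2.19 ± 0.23 SE, adjusted p = 0.000177). Exons of Kcnq1 share 834 bases with those of Kcnq1ot1, an RNA read from the opposite strand, and since the strand setting of the authors' counting is not stated, reads of this stretch cannot be assigned between them. Kcnq1ot1 was at 2929.9 and 1387 in the controls and 777 and 1403 after tamoxifen and did not pass (log2 fold change -0.95 ± 0.38 SE, adjusted p = 0.0650). Kcnq1 exons also share 374 bases with 4933417O13Rik on the opposite strand, which was low and fell, from 56.2 and 50.1 to 7.59 and 6.47 (log2 fold change -2.75 ± 0.56 SE, adjusted p = 0.00381). The falls of Kcna5 and Kcnq1 passed under every alternative tried, with log2 fold changes between -4.66 and -3.67 for Kcna5 and between -2.77 and -1.72 for Kcnq1.

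Kcna6, a further Kv1 pore and the third most abundant voltage-gated gene of the controls by normalized count, was at 594 and 606 without tamoxifen and 408 and 506 with it. All tamoxifen values lay below the control values, yet the difference did not pass (log2 fold change -0.40 ± 0.22 SE, adjusted p = 0.149), and the gene fell after quantile normalization (-1.12, adjusted p = 0.00513). With equal library totals the value was 0.07, which is the shift of about 0.47 seen in all genes and says nothing of Kcna6 in particular. Beside these falls, the endothelial marker sums in the tamoxifen libraries were 120253 and 64127 against 656924 and 659912 in the controls. Tamoxifen library 2 held 0.533 times the endothelial sum of tamoxifen library 1, and the corresponding ratio was 0.840 for Kcna5, 0.668 for Kcnq1 and 1.24 for Kcna6. The part of endothelial marker levels in these values was not tested.

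The voltage-gated genes that rose took in members of 9 families. Kcna2, a Kv1 pore of axons, was at 112 and 119 normalized counts in the control pair and 1040.4 and 2216 in the tamoxifen pair. It was high in both tamoxifen libraries and about alike in both controls (log2 fold change 3.70 ± 0.36 SE, adjusted p = 0.000116). Kcnd3, which encodes an A-type pore that inactivates quickly, was at 87.7 and 106 in the controls and 880.04 and 1246 after tamoxifen. The groups were apart (log2 fold change 3.43 ± 0.29 SE, adjusted p = 6.83e-05). Its relative Kcnd2 went from 35.6 and 18.8 to 308 and 482 normalized counts (log2 fold change 3.84 ± 0.48 SE, adjusted p = 0.000335).

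Calls in this class differed in whether they stayed when a library was left out. Kcna2 and Kcnd3 passed under every alternative. Kcnd2 no longer passed limma without tamoxifen library 2 (3.52, adjusted p = 0.0695) or without tamoxifen library 1 (4.16, 0.0537), although its log2 fold change stayed large. Kcna3, the Kv1 pore of T cells and activated microglia, was low in every library, at 11.0 and 1.25 normalized counts in the controls and 24.9 and 25.9 after tamoxifen. Its rise passed narrowly (log2 fold change 2.35 ± 0.85 SE, adjusted p = 0.0444) and was lost under 9 of 13 alternatives. The log2 fold change was 1.14 without control library 2 and 3.55 without control library 1. Kcna1 had no read in control library 1, 10.01 normalized counts in control library 2 and 20.6 and 15.1 in the tamoxifen libraries. It did not pass (log2 fold change 2.49 ± 1.07 SE, adjusted p = 0.0791). Its estimate was 0.76 once control library 1 was left out and 4.22 once control library 2 was. The second of these fits keeps only the control without a read, so it says nothing of the spread between controls. Kcna1 passed with a replicate block (adjusted p = 0.00758).

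Low counts limit several other voltage-gated genes. Kcns2, a silent subunit that changes the pores it joins, was named after its values were seen, with 1 read in each control library and 41 and 91 reads in the tamoxifen libraries. From these reads the ratio was 43.6, with an exact 95% counting interval from 11.8 to 364. The interval leaves out the spread between libraries, and since the gene passed the filter through the tamoxifen libraries alone, its direction was given by that choice. The same holds for the direction of Kcna3 and Kcna1. Kcnv2, also a silent subunit, was below the filter, with no read in either control library and 11.9 and 1.44 normalized counts in the tamoxifen libraries. Kcna7, the other voltage-gated gene below the filter, was at 0 and 7.51 in the controls and 15.2 and 6.47 after tamoxifen, and its groups overlapped.

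Beside the voltage-gated rises, 8 of 10 neuron markers rose, with a summed level of 1027 and 1267 normalized counts in the controls and 6773 and 9605 after tamoxifen and Stmn2 the most abundant. Snap25 and Syt1, proteins of synaptic vesicle release, did not pass. Snap25 was at 229 and 357 in the controls and 147 and 497 after tamoxifen, with overlapping groups. Among the 6 oligodendrocyte precursor markers all rose, with sums of 2404 and 3093 and 24079.7 and 55684 and Ptprz1 the most abundant, and 5 of 6 oligodendrocyte markers rose, with sums of 1103 and 1386 and 5345 and 5878 and Cnp the most abundant. Without tamoxifen library 1 and without tamoxifen library 2, the rises numbered 5 and 4 for neuron, 5 and 5 for oligodendrocyte precursor and 2 and 2 for oligodendrocyte markers. What these cells contributed to the channel values was not tested.

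All 8 genes of the calcium- or sodium-activated class rose, with a median log2 fold change of 3.62 (5 rises after quantile normalization). Of these, 7 had a control mean of at least 10. The other, Kcnu1, was placed here by structure alone and passed the filter through the tamoxifen libraries. With a tamoxifen library left out fewer of the class rose. The median was 4.09 without tamoxifen library 1 and 3.15 without tamoxifen library 2. Kcnn4 encodes the intermediate-conductance calcium-activated channel, which hyperpolarizes endothelium, lets red cells lose potassium and acts in activated leukocytes. Its level was 13.7 and 16.3 normalized counts without tamoxifen and 802 and 564 with it. Both controls were low and both tamoxifen libraries high, a 45.6-fold rise of the mean and the largest log2 fold change among the 77 genes (log2 fold change 5.40 ± 0.41 SE, adjusted p = 4.70e-05). The rise passed under all 14 alternatives, with log2 fold changes between 4.61 and 5.86.

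Kcnn3 encodes a small-conductance channel found in endothelium and in neurons. It was at 118 and 149 normalized counts in the control pair and 885 and 2027 in the tamoxifen pair. The groups were apart, with the higher value in tamoxifen library 2 (log2 fold change 3.33 ± 0.39 SE, adjusted p = 0.00025). The estimate was 3.93 without tamoxifen library 1, 2.73 without the other, and both passed. Kcnn2, its relative in neurons, went from 49.3 and 40.1 to 539.7 and 871 normalized counts (log2 fold change 3.92 ± 0.37 SE, adjusted p = 0.000104). Kcnt1, a sodium-activated channel of neurons, was at 37.0 and 87.6 in the controls and 1021 and 1738 after tamoxifen. Control library 2 held 2.37 times the level of control library 1, and both tamoxifen values were far above either (log2 fold change 4.52 ± 0.45 SE, adjusted p = 0.000133). The rise of Kcnt1 was lost without tamoxifen library 2 (log2 fold change 4.14, adjusted p = 0.0661), and the estimate was 3.91 without control library 1 and 5.13 without control library 2.

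Kcnma1 encodes the large-conductance channel opened by both calcium and voltage, which limits contraction of vascular smooth muscle, and Kcnmb1 encodes the beta subunit that raises its calcium sensitivity there. Kcnma1 was at 56.2 and 87.6 normalized counts in the controls and 215 and 403 after tamoxifen. It rose (log2 fold change 2.05 ± 0.44 SE, adjusted p = 0.00502), but not without tamoxifen library 1 (adjusted p = 0.0733), without tamoxifen library 2 (0.142) or after quantile normalization (0.121). Kcnmb1 was at 64.4 and 139 in the controls and 157 and 234 after tamoxifen. Tamoxifen values were higher, but the difference did not pass (log2 fold change 1.01 ± 0.47 SE, adjusted p = 0.0975). It turned to -0.19 after quantile normalization and passed as a rise with equal totals (1.48, adjusted p = 0.0385) and with a replicate block (0.0317). The estimate was 1.56 without control library 2 and 0.46 without control library 1. In both groups Kcnmb1 and the sum of the pericyte and smooth muscle markers were higher in library 2 than in library 1, with ratios of 2.16 and 1.49 for Kcnmb1 and 1.77 and 1.99 for the marker sum. Of the 8 pericyte and smooth muscle markers 2 rose (Cnn1 and Des) and none fell by limma, with sums of 22644 and 40121 in the controls and 27033 and 53843 after tamoxifen and Rgs5 the most abundant. After quantile normalization 3 rose and 1 fell, and none rose when either tamoxifen library was left out. Their part in the values of Kcnma1 and Kcnmb1 was not tested.

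Inward rectifiers pass potassium more readily into the cell than out of it. All 12 were tested, 7 rose (58.3%), 2 fell (16.7%, close to the share over all genes) and 3 did not pass, with a median log2 fold change of 1.79 (0.89, with 5 rises and 2 falls, after quantile normalization). Of the 9 with a control mean of at least 10, 5 rose and 2 fell. The rises became fewer when either tamoxifen library was left out. The class median was 2.76 without tamoxifen library 1 and 1.57 without tamoxifen library 2. Kcnj2 encodes Kir2.1, the main strong inward rectifier of brain capillary endothelium. It was at 2860 and 2488 normalized counts without tamoxifen and 571 and 395 with it. Both controls lay above both tamoxifen libraries, a 5.53-fold fall of the mean (log2 fold change -2.49 ± 0.22 SE, adjusted p = 8.26e-05). Kcnj15, which encodes Kir4.2, was at 812 and 657 in the controls and 132 and 91.3 after tamoxifen. It fell 6.57-fold (log2 fold change -2.72 ± 0.30 SE, adjusted p = 0.000201). Both falls passed under all 14 alternatives, with log2 fold changes between -2.90 and -2.02 for Kcnj2 and between -3.44 and -2.25 for Kcnj15. In tamoxifen library 2 relative to library 1 the ratio was 0.692 for Kcnj2 and 0.691 for Kcnj15, beside 0.533 for the endothelial sum, whose part in these falls was not tested.

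Kcnj10 encodes Kir4.1, through which astrocytes clear potassium, and Kcnj16 encodes Kir5.1, which joins Kir4.1 in mixed channels sensitive to pH. Kcnj10 was at 1486 and 2919 normalized counts in the control pair and 6059 and 12157 in the tamoxifen pair. Within each group library 2 was the higher, by ratios of 1.96 and 2.01, and the groups did not overlap (log2 fold change 2.04 ± 0.39 SE, adjusted p = 0.00275). Kcnj16 went from 151 and 272 to 797 and 1755 (log2 fold change 2.54 ± 0.42 SE, adjusted p = 0.00138), with ratios of 1.80 and 2.20 between library 2 and library 1. Kcnj3, a pore of the channels opened by G proteins in neurons and heart, was at 30.1 and 35.0 in the controls and 130.1 and 261 after tamoxifen (log2 fold change 2.47 ± 0.49 SE, adjusted p = 0.00360). Each of these 3 rises failed when tamoxifen library 1 or tamoxifen library 2 was left out, with log2 fold changes of 2.54 and 1.54 for Kcnj10, 3.11 and 1.97 for Kcnj16 and 2.97 and 1.97 for Kcnj3. Without library 1 the adjusted p was 0.0732 for Kcnj10, 0.0532 for Kcnj16 and 0.0551 for Kcnj3, and without library 2 it was 0.150, 0.103 and 0.0945. Kcnj9, a partner of Kcnj3, was low, at 13.7 and 6.26 in the controls and 10.8 and 21.6 after tamoxifen. It did not pass (log2 fold change 0.66 ± 0.68 SE, adjusted p = 0.425), and its sign turned after quantile normalization (-0.49).

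Kcnj6, named after its values were seen, differed widely within the tamoxifen group, with 27.4 and 33.8 normalized counts in the controls and 18.4 and 259 in tamoxifen libraries 1 and 2. The groups overlapped, and the gene did not pass (log2 fold change 1.18 ± 1.07 SE, adjusted p = 0.372). Leaving out tamoxifen library 1 gave an estimate of 3.05, leaving out library 2 one of -0.69, and among the alternatives DESeq2 alone called a rise. Beside the inward rectifiers, all 8 astrocyte markers rose, with sums of 27573 and 32073 in the controls and 139035 and 293916 after tamoxifen, a ratio of 2.11 between the tamoxifen libraries, and Slc1a2, the main glutamate transporter of astrocytes, the most abundant. Between the control libraries the astrocyte sum had a ratio of 1.16, lower than that of Kcnj10, but its markers differed. Gja1 (11915 and 7273) and Gjb6 (282 and 273) were lower in control library 2. The other astrocyte markers were higher there, among them Slc1a2 (11050 and 18112). The astrocyte rises numbered 5 without tamoxifen library 1 and 3 without tamoxifen library 2. How far astrocyte RNA carried the rises of Kcnj10 and Kcnj16 was not tested.

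The 2-pore-domain genes encode background channels that hold the resting voltage. Of 10, 9 were tested, 7 rose, none fell by limma and 2 did not pass (5 rose and 1 fell after quantile normalization), with a median log2 fold change of 3.17 (1.95 after quantile normalization). The rises were 77.8% of the class and 4 of 6 among genes with a control mean of at least 10. They were fewer without either tamoxifen library. The class median was 3.01 without tamoxifen library 1 and 3.03 without tamoxifen library 2. Kcnk1 encodes TWIK-1, a background channel of astrocytes and other cells. It was at 134 and 179 normalized counts without tamoxifen and 1776 and 3278 with it. Both tamoxifen libraries were far above both controls, a 16.1-fold rise of the mean (log2 fold change 3.95 ± 0.31 SE, adjusted p = 5.80e-05). Kcnk5 encodes TASK-2, a channel opened by alkaline pH that is known from kidney and lymphocytes. It was at 107 and 82.6 in the controls and 777 and 630.5 after tamoxifen (log2 fold change 2.88 ± 0.29 SE, adjusted p = 0.000143). Unlike Kcnk1, its higher tamoxifen value stood in library 1. Kcnk10, which encodes TREK-2, a channel opened by stretch and heat, went from 12.3 and 8.76 to 143 and 377 (log2 fold change 4.35 ± 0.60 SE, adjusted p = 0.000572), with an estimate of 5.05 without tamoxifen library 1 and 3.66 without tamoxifen library 2. The rises of Kcnk1, Kcnk5 and Kcnk10 passed under all 14 alternatives.

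Kcnk2, the stretch-sensitive TREK-1 of endothelium and neurons, was at 133 and 273 in the controls and 479 and 825 after tamoxifen. It rose (log2 fold change 1.72 ± 0.41 SE, adjusted p = 0.00811), but did not pass without tamoxifen library 1 (adjusted p = 0.113), without tamoxifen library 2 (0.221), after quantile normalization (0.113) or without a mean-variance trend (0.0516). Kcnk6, which encodes TWIK-2 and led this class in the controls by normalized count, was at 664 and 662 in the control pair and 451 and 313 in the tamoxifen pair. Its tamoxifen values lay below its control values, but the change was under the fold limit (log2 fold change -0.82 ± 0.25 SE, adjusted p = 0.0223), and it was past that limit after quantile normalization (-1.58). Kcnk13 encodes THIK-1, the background channel of microglia. It had no read in control library 1, 1 read in control library 2 and 12 and 38 reads in the tamoxifen libraries. The ratio from these reads was 33.0, with an exact 95% counting interval from 5.67 to 1331 that leaves out the spread between libraries. Like Kcns2 it passed the filter through the tamoxifen libraries alone, which sets its direction, and its call was lost without tamoxifen library 2 (adjusted p = 0.0743). Kcnk7 was below the filter, at 8.22 and 2.50 in the controls and 10.8 and 7.91 after tamoxifen, with overlapping groups. Of the 8 microglia markers 4 rose and none fell by limma (0 of either kind after quantile normalization or when a tamoxifen library was left out), with sums of 2485 and 3819.9 and 5218 and 4577, and their part in Kcnk13 and Kcna3 was not tested.

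**Figure D2:**
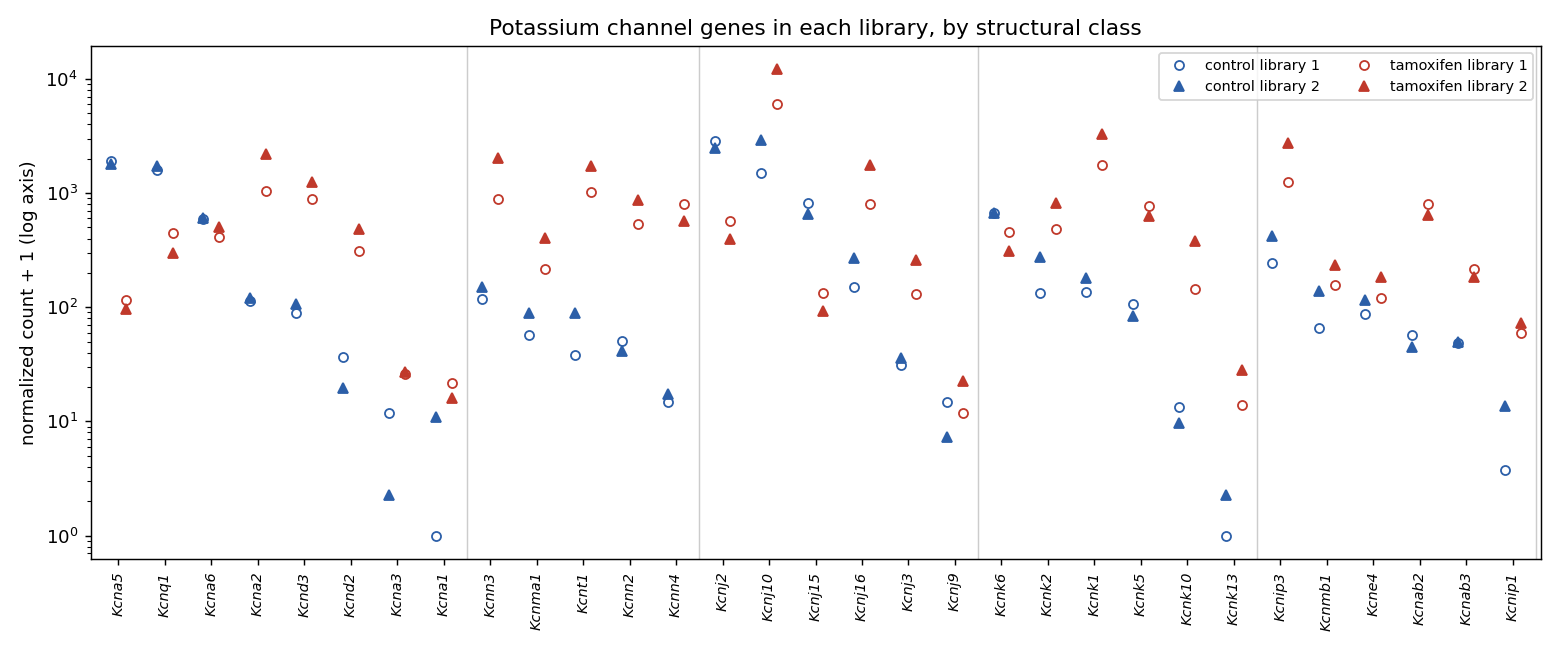
Normalized count + 1 (log axis) of 31 potassium channel genes in each of the 4 libraries, grouped by class in the order voltage-gated, calcium- or sodium-activated, inward rectifier, 2-pore-domain and auxiliary. Blue symbols are control and red symbols tamoxifen libraries, open circles are library 1 and filled triangles library 2. Kcna5 drops from 1922 and 1781 to 114 and 95.6 normalized counts, whereas Kcnj10 reaches 6059 and 12157 after tamoxifen.

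Auxiliary subunits bind the pores of the other classes. All 13 were tested, 6 rose (46.2%), 1 fell (7.69%) and 6 did not pass, with a median log2 fold change of 1.54. The scaling mattered here, with 8 rises and no fall for equal totals and 3 rises, 1 fall and a median of 0.16 after quantile normalization. Of the 10 with a control mean of at least 10, 4 rose and 1 fell, and after quantile normalization 2 rose and 1 fell, with a median of -0.10. Beside these 20% and 10%, that normalization gave 16.5% and 30.7% over all genes of that kind, so the rises were close to the share over all genes. Leaving out either tamoxifen library left fewer rises in the class. Its median was 1.67 without tamoxifen library 1 and 0.85 without tamoxifen library 2. Kcnip3, a calcium-binding partner of A-type channels that also acts as a repressor of transcription, was at 241 and 419 normalized counts in the controls and 1241 and 2766 after tamoxifen. Library 2 was the higher in both groups, and the groups were apart (log2 fold change 2.54 ± 0.40 SE, adjusted p = 0.00112). Kcnab2, a subunit that helps bring Kv1 channels to axons, went from 56.2 and 43.8 to 809.6 and 638 and was, like Kcnn4 and Kcnk5, the higher in tamoxifen library 1 (log2 fold change 3.83 ± 0.33 SE, adjusted p = 7.46e-05). Kcnab3, its relative, was at 47.9 and 48.8 in the controls and 214 and 183 after tamoxifen (log2 fold change 2.01 ± 0.39 SE, adjusted p = 0.00320). Kcnip1, also a partner of A-type channels, went from 2.74 and 12.5 to 58.5 and 71.9 (log2 fold change 3.21 ± 0.73 SE, adjusted p = 0.00667), with estimates of 2.28 without control library 1 and 4.14 without control library 2. Kcnab2 passed under all 14 alternatives. Without tamoxifen library 2, Kcnip3 (adjusted p = 0.0923), Kcnab3 (0.0779) and Kcnip1 (0.148) were lost, and Kcnab3 (0.0914) and Kcnip1 (0.127) were also lost without tamoxifen library 1 and Kcnab3 after quantile normalization (0.0915). The log2 fold change of Kcnab3 stayed at 1.89 and 2.12 without tamoxifen library 1 and 2.

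The Kcne subunits cross the membrane once and alter Kcnq1 and other voltage-gated pores. Kcne4 was at 86.3 and 114 normalized counts in the controls and 120.3 and 183 after tamoxifen. It did not pass (log2 fold change 0.58 ± 0.40 SE, adjusted p = 0.249), and its sign turned after quantile normalization (-0.64). Kcne3, named after its values were seen, went from 134 and 60.1 to 27.1 and 27.3 and fell (log2 fold change -1.69 ± 0.56 SE, adjusted p = 0.0317). Its control values had a larger ratio than those of the other genes that fell, and its call was lost without control library 1, without either tamoxifen library and with equal totals. Kcne2, an auxiliary subunit known from choroid plexus and stomach and also named after its values were seen, had no read in control library 1, 18.8 normalized counts in control library 2 and 44.4 and 179.7 in the tamoxifen libraries. It rose (log2 fold change 4.35 ± 1.34 SE, adjusted p = 0.0241), with estimates between 2.20 and 6.50 over the alternatives, and was lost under 5 of 13. Its control mean was under 10, as was that of Kcnip1, so for both the filter already required higher tamoxifen values. All 6 choroid plexus and ependymal markers rose beside it, with sums of 1020.5 and 3578 in the controls and 9909 and 47482 after tamoxifen, and Ttr the most abundant, but 2 rose without tamoxifen library 1 and none without tamoxifen library 2. The part of these cells in the Kcne2 values was not tested.

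The tamoxifen libraries differed from each other in the channel genes. Of the 77 genes tested, 59 were higher in tamoxifen library 2 than in library 1 (76.6%, beside 42.0% of all genes tested), with a median log2 difference of 0.57 beside -0.08 over all genes. The controls also differed, with 55 of 77 higher in control library 2 (71.4%, beside 54.5%) and a median log2 difference of 0.51 beside 0.05. Among the named genes that rose, Kcnn4, Kcnk5, Kcnab2 and Kcnab3 were higher in tamoxifen library 1, with ratios of library 2 to library 1 of 0.704, 0.811, 0.789 and 0.855. The corresponding ratios of marker sums were 0.745 for neutrophil, 0.641 for erythroid and 0.778 for pluripotency markers, and 2.11 for astrocyte, 2.31 for oligodendrocyte precursor and 1.42 for neuron markers. Ratios under 1 were also seen for microglia (0.877), endothelial (0.533) and pituitary (0.682) markers. The remaining lists gave 1.10 (oligodendrocyte), 1.99 (pericyte and smooth muscle) and 4.79 (choroid plexus and ependymal). The 6 erythroid markers all rose, with sums of 17397 and 35091 in the controls and 159759 and 102371 after tamoxifen and Hbb-bs the most abundant, and 3 of them rose when either tamoxifen library was left out. Any part of neutrophil, erythroid or pluripotency RNA in the rises of Kcnn4, Kcnk5 and Kcnab2 was not tested.

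Other genes of potassium and voltage handling were examined as a list of 36, of which 33 were listed in the table and tested. Of these, 15 rose (45.5%, beside 28.6% of all genes tested) and 4 fell (12.1%, beside 16.0%), and 14 did not pass, with a median log2 fold change of 1.10. Fewer of them rose when either tamoxifen library was left out, and fewer also fell without tamoxifen library 2. No excess over all genes is read from those fits. Among those that fell were Trpv4 and Piezo1, cation channels opened by stretch and flow, and Hcn2, a pacemaker channel. Trpv4 was at 1157 and 1026 normalized counts in the controls and 250.4 and 237 after tamoxifen (log2 fold change -2.16 ± 0.21 SE, adjusted p = 0.000121). Hcn2 was at 3105 and 3551 in the controls and 1162 and 839 after tamoxifen (log2 fold change -1.75 ± 0.20 SE, adjusted p = 0.000223). Both passed under all 14 alternatives, while Piezo1 (log2 fold change -1.02 ± 0.23 SE, adjusted p = 0.00588) was lost with equal totals, quantile normalization, DESeq2 and without tamoxifen library 2. Abcc9, which encodes the sulfonylurea receptor of pericyte and smooth muscle channels, was at 2479 and 4249 in the controls and 4791 and 10135 after tamoxifen (log2 fold change 1.10 ± 0.37 SE, adjusted p = 0.0341), a rise lost under 5 of 14 alternatives, among them leaving out control library 1 or either tamoxifen library.

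Several channel genes are neighbours in the genome. Positions are those of GENCODE M39 on GRCm39, in which all 80 genes were found, and 7 pairs lay within 200 kb. Kcnj16 (chr11:110858843-110927617) and Kcnj2 (chr11:110956981-110967665) are separated by 29.4 kb, and Kcnj16 rose while Kcnj2 fell. Kcna5 (chr6:126509514-126512375) lies 105 kb from Kcna1 and 173 kb from Kcna6, of which neither passed. Kcnj10 (chr1:172168765-172201652) lies 5.196 kb from Kcnj9, which did not pass. Kcna2 and Kcna3 are 62.9 kb apart and both rose, Kcna3 narrowly. Kcna1 and Kcna6 are 61.9 kb apart, and Kcnmb1 lies inside the span of Kcnip1. Exons of 42 of the 80 genes overlap an annotated gene on the opposite strand, and in 19 such a gene is itself listed in the table. Kcnk4 shares 587 exon bases on its own strand with Catsperz, so the values of these genes are uncertain. Kcnk4 was at 4.11 and 6.26 in the controls and 37.9 and 76.2 after tamoxifen, and Catsperz at 1.37 and 5.01 and 40.1 and 54.6.

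Promoter sequences are shown for 4 of the 5 genes that fell and for Kcnn4, which had the largest rise, to set the genes that moved down together beside a gene that moved up. They are the 250 bases before an annotated start, from RefSeq on GRCm38.p6, an earlier build than that of the counts. The start of Kcna5, unlike those of the other 5 promoters, was not found in a GENCODE M39 transcript of the gene. In all, 58 of the 80 genes had an entry with 83 distinct promoters. Each is written 5′ to 3′ on the strand of the gene. Capitals mark matches, on either strand, to GGGCGG (the SP and KLF factors) or CACGTG (the E-box), and CCGGAAG (ETS factors), TATAAA (the TATA box) and TGACTCA (AP-1) were also searched, with no match in these 6. Kcna5 is at chr6:126535556-126535805 (minus strand), Kcnj2 at chr11:111065914-111066163, Kcnj15 at chr16:95257308-95257557, Kcne3, with 2 annotated starts, at chr7:100176420-100176669 and chr7:100178433-100178682, and Kcnn4 at chr7:24370013-24370262, the last 5 on the plus strand.
Kcna5: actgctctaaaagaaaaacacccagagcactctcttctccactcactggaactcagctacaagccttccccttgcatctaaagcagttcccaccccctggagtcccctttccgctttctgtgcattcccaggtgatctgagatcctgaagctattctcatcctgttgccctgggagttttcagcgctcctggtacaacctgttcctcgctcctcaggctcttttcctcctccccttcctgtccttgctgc
Kcnj2: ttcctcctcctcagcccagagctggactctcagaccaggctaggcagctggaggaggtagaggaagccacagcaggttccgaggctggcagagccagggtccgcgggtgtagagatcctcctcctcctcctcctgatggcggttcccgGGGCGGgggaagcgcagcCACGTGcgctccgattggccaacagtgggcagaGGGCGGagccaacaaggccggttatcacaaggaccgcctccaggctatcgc
Kcnj15: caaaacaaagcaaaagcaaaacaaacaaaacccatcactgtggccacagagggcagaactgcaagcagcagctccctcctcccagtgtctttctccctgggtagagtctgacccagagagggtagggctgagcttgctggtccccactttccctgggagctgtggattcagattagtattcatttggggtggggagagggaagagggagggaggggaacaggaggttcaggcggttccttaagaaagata
Kcne3 upstream start: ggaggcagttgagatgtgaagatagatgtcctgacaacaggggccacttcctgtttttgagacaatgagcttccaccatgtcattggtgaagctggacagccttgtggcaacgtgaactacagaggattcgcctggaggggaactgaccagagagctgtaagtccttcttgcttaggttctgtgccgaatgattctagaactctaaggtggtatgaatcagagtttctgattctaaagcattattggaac
Kcne3 downstream start: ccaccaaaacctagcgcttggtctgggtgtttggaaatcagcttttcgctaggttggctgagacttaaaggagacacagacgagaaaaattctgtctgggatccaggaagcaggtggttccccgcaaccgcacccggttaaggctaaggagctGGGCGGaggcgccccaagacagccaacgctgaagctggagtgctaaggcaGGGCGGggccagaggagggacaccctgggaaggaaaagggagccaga
Kcnn4: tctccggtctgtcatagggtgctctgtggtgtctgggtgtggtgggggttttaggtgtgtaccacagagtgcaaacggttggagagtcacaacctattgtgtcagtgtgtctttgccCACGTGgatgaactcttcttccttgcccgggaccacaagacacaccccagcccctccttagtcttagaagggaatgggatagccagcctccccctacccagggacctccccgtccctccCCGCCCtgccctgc

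The promoter of Kcnj2 was the richest in G and C of the 6, at 65.6%, beside 53.2% for Kcna5 and 53.2% for Kcnj15 and a median of 52.4% over all 32536 distinct promoters. GGGCGG was found in 33.0% of all promoters and in 47.0% of the 83 promoters of potassium channel genes. CACGTG was found in 6.04% and 7.23%, CCGGAAG in 6.95% and 2.41%, TATAAA in 12.3% and 2.41%, and TGACTCA in 4.45% and 2.41%. By gene, GGGCGG was present for 38 of the 58 with an entry (65.5%, beside 58.7% of the 13285 tested genes with one), for 30 of the 41 of these that rose (73.2%) and 2 of the 4 that fell. Kcnj2 and Kcnn4, which moved in opposite directions, both held GGGCGG and CACGTG in this window. A match describes letters only, and binding was not measured.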

How the data were processed

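The authors aligned reads of KAPA Stranded mRNA libraries with STAR 2.7.10a to GRCm39, left out low-count genes and used DESeq2 1.36.0 for normalization. The annotation, the strand setting and the low-count limit are not given in the sources used here. Each deposited value is a signal, namely the read count of a gene over the size factor of its library. Dividing a column by its smallest step gave back whole reads (100% of values whole at a relative tolerance of 0.001), and depths and the 3-read floor follow from them. A figure legend of the study calls each library an independent group of 3 pooled mice, whereas its methods give 3 mice for each group.

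Groups were compared with limma 3.58.1 under R 4.3.3 (lmFit, eBayes with a mean-variance trend, two-sided) on log2(normalized count + 1) for 20485 genes whose mean was at least 10, with Benjamini-Hochberg adjustment over all of them. An exact permutation test of 2 against 2 libraries cannot go below p = 0.333 and was not used. The procedure was tested on simulated data. The fit was repeated with equal totals, quantile normalization, no trend, a replicate block, pseudocounts of 0.5 or 5, a filter at 100 or none, adjusted p alone, each library left out in turn, and with edgeR 4.0.16 or DESeq2 1.42.0 applied to the recovered reads. Gene positions and exon lengths came from GENCODE M39. For closer description were chosen, in each class, the 3 genes with the highest mean in each group, the 2 largest rises and the 2 largest falls among genes with a mean of at least 100, 11 genes with a known place in vessels, glia or blood, and neighbours within 200 kb. Of the 33 genes chosen in this way, 31 are described. The genes and lists were chosen with earlier results of these data known.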

Additional observations from a re-analysis of the deposited data

How the results depend on the processing

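For the 33 potassium channel genes chosen for closer description, 412 of 457 estimates from an alternative kept their direction and their side of the thresholds, 34 lost the call (adjusted p from 0.0516 to 0.283), 7 gained it and 4 reversed. The reversals were Kcna6 with equal totals (0.0682) and Kcne4 (-0.64), Kcnj9 (-0.49) and Kcnmb1 (-0.19) with quantile normalization, none of them called as reported, and Mgp reversed with equal totals (0.0786). Of the lost calls, 14 came without tamoxifen replicate 2, 9 without tamoxifen replicate 1, 1 without control replicate 2 and 0 without control replicate 1. Under every alternative run for them, 13 of the 54 rises and 4 of the 5 falls kept their call. The filter at 100 normalized counts, which tests fewer genes, left 3540 rises over all genes and 31 among potassium channel genes. Equal totals gave 1838 falls over all genes, and quantile normalization gave 5509 falls over all genes and 34 rises among potassium channel genes, and adjusted p alone gave 5228 falls over all genes. The cause of these shifts was not tested. The median log2 fold change of the potassium channel genes, 2.49 as reported, was 2.06 with a pseudocount of 5, 2.93 with equal totals and 1.57 with quantile normalization. Leaving out each library gave between 2553 and 6163 rises and 1594 and 3537 falls over all genes, between 13 and 58 rises and 4 and 5 falls among the potassium channel genes, medians between 1.999 and 2.96, and Mgp estimates between -0.54 and -0.24. Whether equal replicate numbers mark a shared batch was not settled. The deviations of the first control and the first tamoxifen library from their group means correlated at 0.0251 over 20485 genes. A value over all genes cannot decide this for a part of them. Of the 77 potassium channel genes tested, 55 were higher in control library 2 and 59 in tamoxifen library 2 (54.5% and 42.0% over all genes tested). With a replicate block, 58 potassium channel genes rose and 5 fell, and over all genes 6064 rose and 3461 fell. edgeR on recovered reads called 5864 rises and 3377 falls over all genes and 53 and 5 among potassium channel genes, and DESeq2 called 5694 and 3045, and 52 and 5. Genes with few control reads are limited by depth, with 5 potassium channel genes at or under 3 reads in both controls.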
